A study of Mus musculus with 14 samples.

Results

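The genes described here are 10 subunits of voltage-gated calcium channels, Cacna1a, Cacna1c, Cacna1d, Cacna1g, Cacna1h, Cacnb1, Cacnb2, Cacnb3, Cacna2d1 and Cacna2d2, taken by their symbols from the expression table. All 10 were found, among 50686 genes counted and 16181 genes kept in the CPM table (reads scaled to a library of 1000000). RNA was measured in mouse embryonic stem cells (ESCs) and in embryoid bodies (EBs), the floating aggregates that ESCs form when they differentiate. The line labelled shLacZ carried a control hairpin RNA, and the line labelled shDis3l2 carried a hairpin against Dis3l2, an exoribonuclease that degrades uridylated RNA. Both stable lines came, per the study, from ESCs with an Osr1-GFP reporter, and no label gives separate clones or cultures. Undifferentiated cells were kept in LIF/2i, the medium that holds ESCs pluripotent (d0). EBs were then formed in hanging drops with serum after LIF/2i was withdrawn, and were sampled on d2, d4, d6, d8, d10 and d12. Each line gave 1 library on each of the 7 days, 14 libraries in all, so that no single-day difference can be set against replicate spread.

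Voltage-gated calcium channels open when the membrane depolarises and let calcium into the cell, where it drives contraction, secretion and gene expression. The pore is formed by a single large subunit, which sets the class of the channel. P/Q-type pores (Cacna1a) serve transmitter release at synapses, L-type pores (Cacna1c and Cacna1d) serve heart, smooth muscle and endocrine cells, and T-type pores (Cacna1g and Cacna1h) open at low voltage and serve pacemaking and firing. Cytoplasmic beta subunits (Cacnb1, Cacnb2 and Cacnb3) bring the pores of the high-voltage classes to the membrane, and the extracellular alpha2delta subunits (Cacna2d1 and Cacna2d2) raise their number there. T-type pores can work without either.

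On GRCm38, as the gene tables give them, the pore genes lay as follows: Cacna1a (ENSMUSG00000034656) at chr8:84388440-84640246 on the + strand, Cacna1c (ENSMUSG00000051331) at chr6:118587240-119196418 on the - strand, Cacna1d (ENSMUSG00000015968) at chr14:30039949-30491156 on the - strand, Cacna1g (ENSMUSG00000020866) at chr11:94408391-94474198 on the - strand and Cacna1h (ENSMUSG00000024112) at chr17:25374285-25433783 on the - strand. The beta genes were Cacnb1 (ENSMUSG00000020882) at chr11:98001508-98023034 on the - strand, Cacnb2 (ENSMUSG00000057914) at chr2:14603088-14987908 on the + strand and Cacnb3 (ENSMUSG00000003352) at chr15:98632220-98644530 on the + strand. The alpha2delta genes were Cacna2d1 (ENSMUSG00000040118) at chr5:15934691-16374511 on the + strand and Cacna2d2 (ENSMUSG00000010066) at chr9:107399612-107529343 on the + strand. Values are reads over all exons of a gene, so that splice forms were not told apart.

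Promoter sequence was matched for 7 of the 10 genes from RefSeq (GRCm38.p6), with no entry for Cacna1a, Cacna1g or Cacna1h. The windows below hold the 250 bases before an annotated start, 5′ to 3′ on the gene's strand. They are shown because they lie outside every annotated exon and belong to the following genes. Cacna2d1, with a single listed start, was higher in late shDis3l2 EBs. Cacna1d climbed in both lines, and Cacna1c is an L-type gene that separated between the lines. Capitals mark GGGCGG and its reverse complement CCGCCC, the core of the GC box.
Cacna2d1, chr5:15934441-15934690, + strand: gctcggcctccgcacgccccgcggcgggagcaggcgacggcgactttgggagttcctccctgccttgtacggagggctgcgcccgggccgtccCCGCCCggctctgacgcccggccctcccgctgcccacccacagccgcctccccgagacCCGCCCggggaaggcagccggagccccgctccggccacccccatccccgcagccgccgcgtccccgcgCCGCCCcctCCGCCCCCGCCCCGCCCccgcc
Cacna1d, the inner of its 2 starts, chr14:30353487-30353736, - strand: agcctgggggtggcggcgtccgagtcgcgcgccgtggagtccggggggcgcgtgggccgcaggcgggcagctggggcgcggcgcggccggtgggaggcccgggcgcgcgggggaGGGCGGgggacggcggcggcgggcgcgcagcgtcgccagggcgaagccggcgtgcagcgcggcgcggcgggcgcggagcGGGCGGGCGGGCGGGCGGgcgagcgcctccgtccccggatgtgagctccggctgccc
Cacna1c, the innermost of its 3 starts, chr6:118757975-118758224, - strand: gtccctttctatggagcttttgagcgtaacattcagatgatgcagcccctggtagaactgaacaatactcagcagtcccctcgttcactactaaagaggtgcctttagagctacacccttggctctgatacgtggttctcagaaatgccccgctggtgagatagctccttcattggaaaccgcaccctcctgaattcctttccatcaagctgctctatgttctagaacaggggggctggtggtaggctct
The Cacna2d1 window held 36 CpG dinucleotides, 82.4% G or C and 6 matches to the motif, counting overlapping matches on both strands. The Cacna1d window held 50 CpG, 86.4% G or C and 5 matches. The Cacna1c window held 5 CpG, 50.4% G or C and no match, while another of its starts held 48 CpG and 6 matches. Over the windows of all genes (32851) the median was 6 CpG and 52.4% G or C, and 32.7% held GGGCGG on either strand. Gene-level counts do not tell which start was used, and a match to a motif is a description of the letters.

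The libraries held 7178712 (shLacZ d4) to 39888099 (shLacZ d0) counted reads, median 18277649, and 3 reads, taken here as the floor of detection, corresponded to 0.0752 to 0.418 CPM. Intervals given below are 95% intervals that cover counting error only. Dis3l2 itself stood on d0 at 28.7 CPM in shLacZ and, with the hairpin, at 3.93 CPM, 0.137 of the control (0.111 to 0.167). The ratio was 0.281 on d2, 0.321 on d4 and 0.552 on d6, but 0.971 (0.837 to 1.13) on d8, 0.95 (0.788 to 1.15) on d10 and 0.754 (0.609 to 0.934) on d12. The knockdown was thus not detectable in the reads on d8 and d10, and the directions given for those days compare the libraries as labelled. The 6 markers of pluripotent ESCs summed to 2550 CPM (shLacZ) and 1620 CPM (shDis3l2) on d0 and to at most 490 CPM from d6 on. On d0 the choice of scaling mattered: the median log2 difference of all genes was -0.32 when scaled by library totals, -0.07 after TMM scaling and 0.07 after scaling by size factors from DESeq2.

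Most calcium channel genes differed little between the lines on d2 and d4 and separated from d6 on. The 5 genes that rose in late shDis3l2 EBs (d6 to d12, edgeR, where 19.6% of all genes tested were called higher) were both T-type pores, Cacna1h and Cacna1g, the L-type pore Cacna1c, and the auxiliary subunits Cacna2d1 and Cacnb3. Cacna2d2 fell (18.7% of genes were called lower), and Cacna1a, Cacna1d, Cacnb1 and Cacnb2 did not pass the test. Summed over the 10 genes, shLacZ libraries held 77.0 to 125 CPM from d6 to d12 and shDis3l2 libraries 138 to 295 CPM. The largest parts of the shDis3l2 sum on d12 were Cacna1h (73.4 CPM), Cacnb3 (61.1), Cacna1g (53.4) and Cacna2d1 (42.6). Sums of randomly drawn genes were not made for comparison. Sums of marker lists, some higher and some lower in shDis3l2, are given below.

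**Figure D1:**
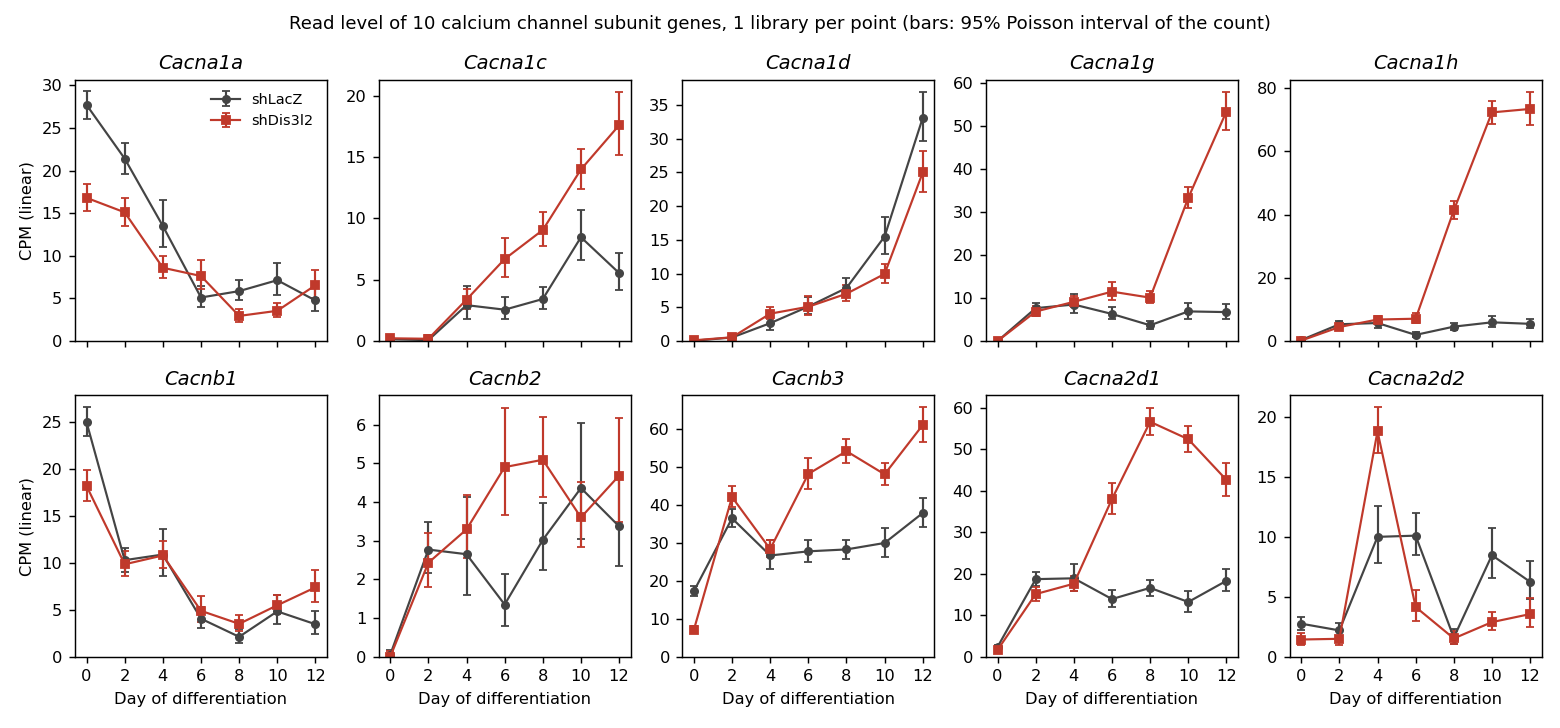
CPM on linear axes (y, one scale per gene) against the day of differentiation (x) for the 10 subunit genes, with shLacZ as dark circles, shDis3l2 as red squares, 1 library per point and bars giving the 95% Poisson interval of the count. Cacna1h and Cacna1g stand above the control curve from d6 and reach 73.4 and 53.4 CPM in shDis3l2 on d12, while Cacna1d climbs in both lines.

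Cacna1h, a T-type pore, had the largest difference of the 10 genes. In shLacZ it measured 0.326 CPM on d0, 5.31 on d2, 5.71 on d4, 1.95 on d6, 4.56 on d8, 5.93 on d10 and 5.45 on d12. In shDis3l2 the same days gave 0.151, 4.44, 6.81, 7.07, 41.3, 72.3 and 73.4 CPM. The control dropped between d4 and d6, to 0.342 (0.201 to 0.573) of its d4 level, and was again near its d2 level from d8. The shDis3l2 line kept its level from d4 to d6 (1.04, 0.773 to 1.38) and then went up 5.84-fold (4.6 to 7.5) from d6 to d8. The ratio of shDis3l2 to shLacZ was 3.62 (2.29 to 5.89) on d6, 9.06 (7.16 to 11.6) on d8, 12.2 (9.18 to 16.6) on d10 and 13.5 (10.2 to 18.0) on d12, the last from 784 against 55 reads. Before d6 each interval of the ratio held 1, for example 0.837 (0.638 to 1.09) on d2. The d8 and d10 ratios stood on days when Dis3l2 did not differ detectably between the libraries.

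Cacna1g, the other T-type pore, had no read in either ESC library, where the floor of 3 reads was 0.0752 CPM in shLacZ and 0.113 CPM in shDis3l2. It appeared on d2 at 7.66 CPM in the control and 6.87 CPM in the knockdown line, at least 102-fold and at least 60.6-fold above the d0 floor of 3 reads. The control then gave 8.5, 6.31, 3.67, 6.9 and 6.74 CPM from d4 to d12, and shDis3l2 gave 9.13, 11.5, 10.1, 33.3 and 53.4 CPM. Appearance of the transcript on d2 was thus shared by both lines. From d8 to d10 the level went up 1.88-fold (1.29 to 2.74) in shLacZ and 3.29-fold (2.81 to 3.87) in shDis3l2. From d10 to d12 the change was 0.977 (0.677 to 1.42) in shLacZ and 1.6-fold (1.43 to 1.79) in shDis3l2. The ratio was 1.82 (1.37 to 2.43) on d6, 2.76 (2.07 to 3.73) on d8, 4.83 (3.69 to 6.45) on d10 and 7.91 (6.15 to 10.3) on d12. Both T-type genes were thus apart from the control by d6 and had their largest ratio on d12.

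Cacna1c, the L-type pore of heart and smooth muscle, had 6 reads in each ESC library and 2 and 4 reads on d2. From d4 to d12 it measured 2.93, 2.56, 3.43, 8.47 and 5.55 CPM in shLacZ and 3.38, 6.69, 9.06, 14 and 17.6 CPM in shDis3l2. Reads first appeared in number on d4 in both lines (21 and 70 reads), and shDis3l2 then held the higher level on each day from d6. The ratio was 2.62 (1.72 to 4.07) on d6, 2.64 (1.95 to 3.61) on d8, 1.65 (1.27 to 2.17) on d10 and 3.17 (2.34 to 4.35) on d12. The levels of the lines overlapped across days, since shLacZ d10 stood above shDis3l2 d6.

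Cacna1d, the L-type pore of endocrine and pacemaker cells, behaved otherwise. It was at 2 and 3 reads in the ESC libraries and then measured 0.531, 2.65, 5.11, 7.87, 15.5 and 33.1 CPM from d2 to d12 in shLacZ. In shDis3l2 it measured 0.561, 4.06, 5.09, 7.02, 9.95 and 25.0 CPM. The value was higher at each later day in both lines, although the step from d4 to d6 in shDis3l2 was within counting error (1.25-fold, 0.874 to 1.79), and it went up 6.48-fold (4.98 to 8.54) from d6 to d12 in shLacZ and 4.91-fold (3.66 to 6.71) in shDis3l2. The ratio of the lines was 0.642 (0.513 to 0.806) on d10 and 0.755 (0.64 to 0.889) on d12, lower in shDis3l2 beyond counting error on these days, but the line difference over d6 to d12 was not called.

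Cacna1a, the P/Q-type pore of presynaptic terminals, was the leading pore of the ESCs and declined afterwards. In shLacZ it measured 27.7, 21.4, 13.5, 5.11, 5.86, 7.14 and 4.76 CPM from d0 to d12. In shDis3l2 it measured 16.8, 15.1, 8.6, 7.63, 2.95, 3.55 and 6.55 CPM. From d0 to d12 the level went to 0.172 (0.126 to 0.23) of its start in shLacZ and to 0.39 (0.299 to 0.503) in shDis3l2. The ratio of the lines was below 1 on d0 (0.608, 0.543 to 0.679), d2, d4, d8 and d10, above it on d6 (1.49, 1.07 to 2.09), and its interval held 1 on d12 (1.38, 0.94 to 2.03). The log2 difference on d0 was -0.72 on library totals, -0.47 under TMM and -0.33 under DESeq2 size factors, negative under all 3 scalings.

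Among the beta subunits, Cacnb3 was the most abundant after d0. In shLacZ it measured 17.3, 36.5, 26.7, 27.8, 28.3, 30.0 and 37.9 CPM from d0 to d12, and in shDis3l2 7.14, 42.1, 28.4, 48.2, 54.2, 48.1 and 61.1 CPM. It stood lower in shDis3l2 ESCs and higher in every shDis3l2 EB library from d6 than in any shLacZ library of these days. The ratio was 0.413 (0.349 to 0.485) on d0, with a log2 difference of -1.28 on library totals, -1.03 under TMM and -0.89 under DESeq2 size factors. It was 1.73 (1.51 to 1.99) on d6, 1.92 (1.72 to 2.14) on d8, 1.6 (1.39 to 1.85) on d10 and 1.61 (1.42 to 1.83) on d12.

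Cacnb1, the beta subunit of skeletal muscle channels, fell with differentiation. It went from 25.0 to 3.47 CPM between d0 and d12 in shLacZ, 0.139 (0.0962 to 0.194) of its start, and from 18.2 to 7.4 CPM in shDis3l2, 0.407 (0.317 to 0.518). On d6, d8, d10 and d12 the levels were 4.06, 2.13, 4.84 and 3.47 CPM in shLacZ and 4.9, 3.51, 5.49 and 7.4 CPM in shDis3l2. The ratio exceeded counting error on d8 (1.65, 1.09 to 2.54) and d12 (2.13, 1.41 to 3.27), though not on d6 or d10. Cacnb2, the main beta subunit of heart muscle, was at 2 reads or none in ESCs and between 1.35 and 5.09 CPM in every EB library. Its ratio was 3.62 (2.08 to 6.58) on d6, from 52 against 18 reads, 1.69 (1.19 to 2.41) on d8, 0.826 (0.549 to 1.26) on d10 and 1.39 (0.88 to 2.21) on d12, so that the direction was not held across days.

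The alpha2delta genes moved apart. Cacna2d1, the alpha2delta subunit of muscle and many neurons, measured 2.38, 18.7, 18.9, 13.9, 16.6, 13.2 and 18.3 CPM from d0 to d12 in shLacZ. In shDis3l2 it measured 1.66, 15.1, 17.6, 38.0, 56.6, 52.4 and 42.6 CPM. The first climb, from d0 to d2, was of like size in the lines, 7.85-fold (6.29 to 9.88) in shLacZ and 9.08-fold (6.61 to 12.7) in shDis3l2. The second, from d4 to d6, was 2.16-fold (1.87 to 2.5) in shDis3l2, while shLacZ went to 0.734 (0.585 to 0.923) of its d4 level. The ratio of the lines was 2.73 (2.29 to 3.27) on d6, 3.42 (2.99 to 3.91) on d8, 3.97 (3.26 to 4.88) on d10 and 2.32 (1.95 to 2.77) on d12, and no late library of one line overlapped the other.

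Cacna2d2, an alpha2delta subunit known from cerebellar neurons, went up and down more than once. In shLacZ it measured 2.76, 2.2, 10.0, 10.1, 1.6, 8.47 and 6.25 CPM from d0 to d12, and in shDis3l2 1.44, 1.5, 18.8, 4.15, 1.53, 2.89 and 3.56 CPM. Both lines went up between d2 and d4, 4.56-fold (3.18 to 6.56) in shLacZ and 12.6-fold (8.76 to 18.6) in shDis3l2. The shDis3l2 level dropped by d6 to 0.221 (0.158 to 0.302) of d4, whereas shLacZ held its level to d6 (1.01, 0.755 to 1.37) and dropped by d8. It then went up again in shLacZ, 5.3-fold (3.36 to 8.6) from d8 to d10. The ratio was thus 1.87 (1.45 to 2.44) on d4, 0.409 (0.284 to 0.578) on d6, 0.956 (0.549 to 1.67) on d8, 0.341 (0.238 to 0.488) on d10 and 0.57 (0.37 to 0.865) on d12.

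**Figure D2:**
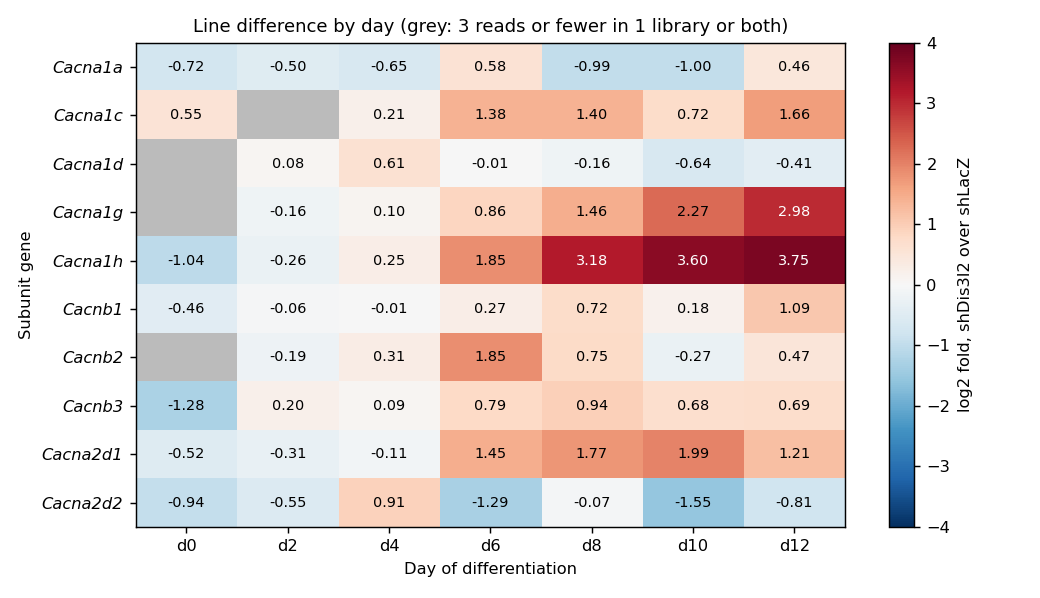
The log2 ratio of shDis3l2 to shLacZ CPM (colour and printed value, library totals) for each subunit gene (rows) on each day (columns), with grey where a library had 3 reads or fewer. The red block at d6 to d12 holds Cacna1h, up to 3.75, Cacna1g, up to 2.98, Cacna2d1 and Cacna1c, and the deepest blue is Cacna2d2 on d10, at -1.55.

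Counted by day, a gene was called past 3-fold where it also had at least 1 CPM in a library of that day. No subunit was past 3-fold higher on d0, d2 or d4, where 0.584%, 0.114% and 0.361% of protein-coding genes were. On d6 these were 2 of the 10, Cacna1h and Cacnb2, against 2.7% of protein-coding genes, and on d8 2, Cacna1h and Cacna2d1, against 5.47%. On d10 they were 3, Cacna1g, Cacna1h and Cacna2d1, against 8.65%, and on d12 3, Cacna1c, Cacna1g and Cacna1h, against 8.1%. No subunit was past 3-fold lower on any day, where the share of protein-coding genes was 2.25% on d0, 0.129% on d2, 1.68% on d4, 4.23% on d6, 3.71% on d8, 3.13% on d10 and 1.41% on d12. Cacna2d2 on d10 lay next to that limit, at a log2 difference of -1.55 on library totals and -1.59 with TMM, past it under the latter. Cacna1c on d12 lay next to the upper limit, at 1.66 on library totals. It was short of that limit with TMM (1.56) and with DESeq2 size factors (1.58). The median log2 difference of the subunits with at least 1 CPM was -0.72 on d0, -0.22 on d2 and 0.16 on d4, when that of all genes was -0.32, -0.07 and -0.01. It was 0.83 on d6, 0.84 on d8, 0.43 on d10 and 0.89 on d12, when that of all genes was 0.0, 0.03, 0.01 and 0.05.

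With days as blocks, the line difference over the 4 late days was tested with edgeR's quasi-likelihood test across all 17164 genes that passed the filter, all 10 subunits included. The days of a single series stood in for replicates, so that the p-values measure how steady a difference was over these days and not how it would vary between cultures. Of the 10 subunits, 5 were higher and 1 was lower at an adjusted p under 0.05, when 38.3% of all genes tested were called in either direction. Their median log2 difference was 0.71, against 0.02 for all genes. Cacna1h rose by 3.23 on the log2 scale (SE 0.27, adjusted p = 0.000549) and Cacna1g by 1.91 (SE 0.33, adjusted p = 0.00484). Cacna2d1 rose by 1.6 (SE 0.14, adjusted p = 0.000632), Cacna1c by 1.27 (SE 0.19, adjusted p = 0.00278) and Cacnb3 by 0.77 (SE 0.08, adjusted p = 0.001). Cacna2d2 fell by 0.99 (SE 0.26, adjusted p = 0.0236), a call that was lost without d6 (adjusted p = 0.0581) or without d10 (0.12), the range over all alternatives being 0.00428 to 0.12. The remaining log2 values were 0.65 for Cacnb2 (SE 0.33, adjusted p = 0.159), 0.55 for Cacnb1 (SE 0.21, 0.0778), -0.33 for Cacna1d (SE 0.14, 0.105) and -0.25 for Cacna1a (SE 0.33, 0.576).

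Whether the line difference itself changed between the early days (d0 to d4) and the late days was tested as an interaction, across 20050 genes. It increased for 3 subunits, Cacna1h, Cacna2d1 and Cacna1g, and decreased for none at an adjusted p under 0.05, when 4.85% of genes increased and 5.24% decreased, 10.1% in all. At an unadjusted p under 0.05 Cacnb3 (0.91, SE 0.27) and Cacna1d (-0.91, SE 0.36) were also past the limit, with adjusted p of 0.0576 and 0.131, and over the alternatives run the adjusted p of Cacnb3 ranged from 0.000612 to 0.139. The log2 change was 3.22 for Cacna1h (SE 0.43, adjusted p = 0.00387), 1.74 for Cacna2d1 (SE 0.22, adjusted p = 0.00371) and 1.84 for Cacna1g (SE 0.51, adjusted p = 0.0495). The Cacna1g call was lost on library totals and without any of d0, d2, d4, d8, d10 or d12.

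**Figure D3:**
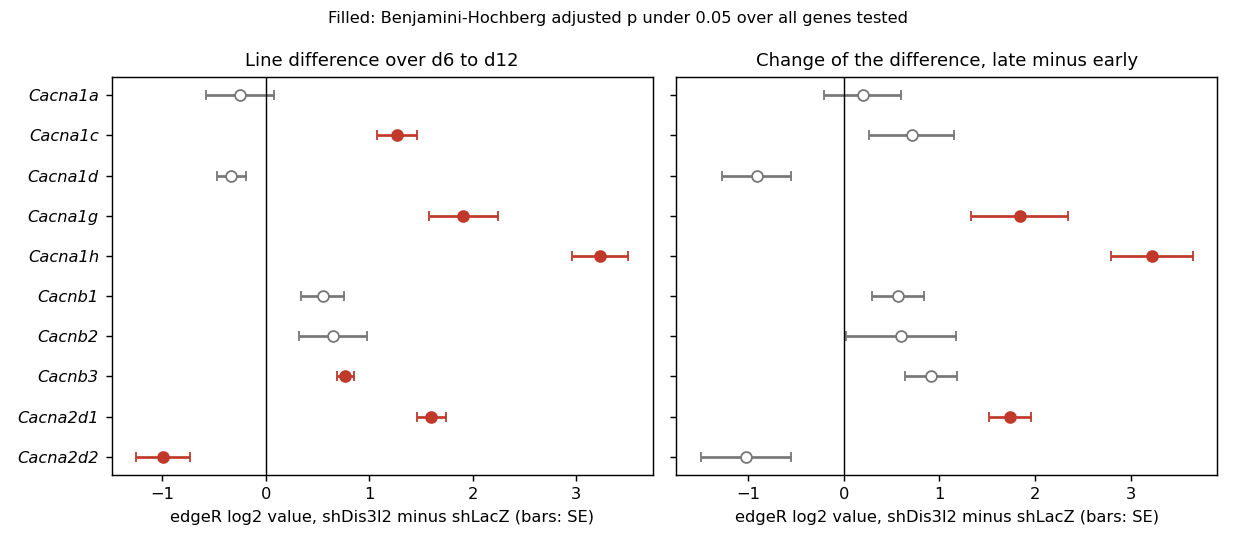
The edgeR log2 estimate (x, bars give the SE) for each subunit gene (y), for the line difference over d6 to d12 on the left and for its change from d0 to d4 to d6 to d12 on the right, with filled red points for an adjusted p under 0.05. On the left, 5 filled points lie right of 0 and Cacna2d2 lies left of it, at -0.99, and on the right the filled points are Cacna1g, Cacna1h and Cacna2d1.

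Over all 7 days, with the same test, Cacna1c alone was called (log2 1.04, SE 0.21, adjusted p = 0.0255), among 5.72% of genes called, 1.91% higher and 3.82% lower. This call was lost without d6, d8, d10 or d12. Cacna1h had a larger difference with a wider spread over the days (1.9, SE 0.58, adjusted p = 0.078), as had Cacna1g (1.21, SE 0.39, adjusted p = 0.0952). The change with time was tested on the 6 day terms together, and 9 of the 10 subunits were called, against 84.7% of genes. Cacnb3 was the exception (adjusted p = 0.0906), although on library totals all 10 were called, Cacnb3 with an adjusted p of 0.0454. Without d0, 5 subunits were called, and Cacna1g, Cacna1h, Cacnb2 and Cacna2d1 were lost.

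To compare levels between genes, reads were scaled to exon length (RPKM). Shares of the pore level are within the 5 pore genes described here and leave out other pores of the family, of which Cacna1b alone had 22.7 to 31.8 CPM on d2 and d4. In the ESCs Cacna1a made 98.1% of the summed pore level in shLacZ and 97.5% in shDis3l2. On d2 and d4 T-type pores made 40.2% and 47.0% in shLacZ and 44.9% and 54.2% in shDis3l2. The P/Q-type share on these days was 57.9% and 39.0% in shLacZ and 52.4% and 25.5% in shDis3l2. From d6 on, the T-type share was 42.3%, 35.2%, 32.3% and 22.3% in shLacZ and 54.8%, 78.3%, 83.9% and 75.7% in shDis3l2. The L-type share reached 70.1% in the control on d12, most of it Cacna1d, against 20.9% with the hairpin. Summed over the pores, d12 gave 5.49 RPKM in shLacZ against 16.9 RPKM with the hairpin.

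**Figure D4:**
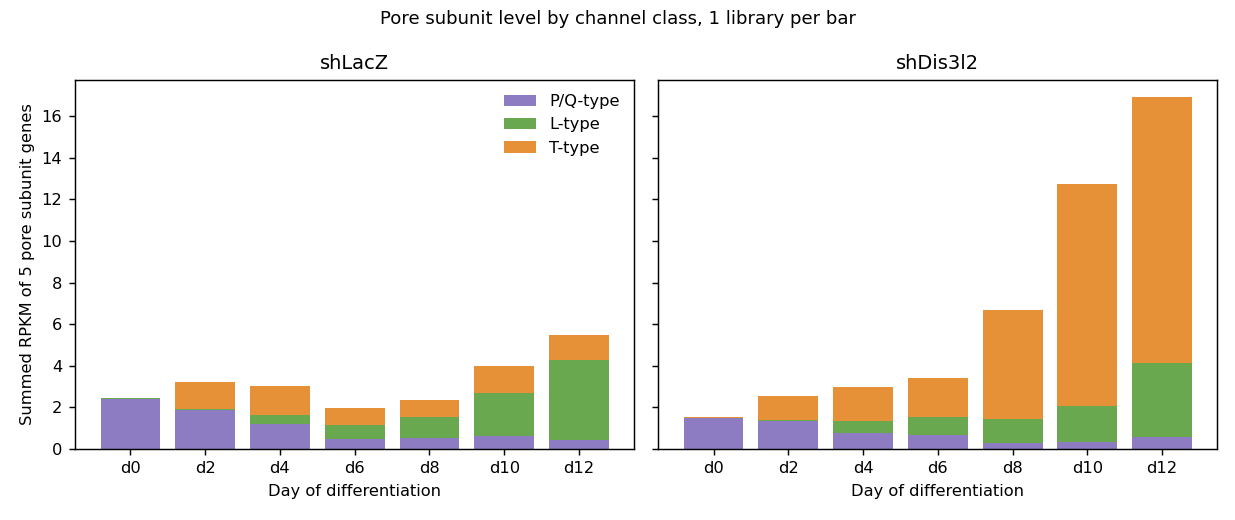
Summed RPKM of the 5 pore genes (y, from 0) by day (x) in shLacZ (left) and shDis3l2 (right), 1 library per bar, divided into P/Q-type (Cacna1a), L-type (Cacna1c and Cacna1d) and T-type (Cacna1g and Cacna1h). The d0 bars are nearly all P/Q-type, and on d12 the T-type part makes 22.3% of the shLacZ bar and 75.7% of the shDis3l2 bar.

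Differences in share were tested over the 7 days by an exact two-sided permutation of the sign within days, which cannot go below 0.0156, for 8 shares. The days belong to a single series, so that these p-values do not measure how a share would vary between cultures. The Cacna2d1 and Cacna2d2 shares mirror each other, and both enter the 8 with the same p. The pore shares, and likewise the beta shares, add up to the whole of their family. The T-type and P/Q-type results are therefore not separate findings. The T-type share was higher in shDis3l2 on 6 of the 7 days, by 24.6 percentage points on average (SD 23.7, exact p = 0.0312, adjusted p = 0.125). The P/Q-type share was lower in shDis3l2 on all 7 days, with a mean difference of -8.33 points (SD 6.5, exact p = 0.0156, adjusted p = 0.125), and no share passed the adjustment. Cacna2d1 made 46.7%, 86.9%, 49.9% and 65.3% of the summed alpha2delta level from d6 to d12 in shLacZ and 85.4%, 96.0%, 92.1% and 88.5% in shDis3l2 (7-day difference 15.0 points, SD 21.1, exact p = 0.125, adjusted p = 0.2). Cacnb3 made at least 87.3% of the beta level in every EB library from d6 in either line.

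In the order of levels on d12, Cacnb3 led in both lines, at 12.1 RPKM in shLacZ against 19.6 RPKM in shDis3l2. In shLacZ Cacna1d (3.58 RPKM) and Cacna2d1 (1.48 RPKM) followed, and below them Cacna2d2, Cacnb1, Cacna1g, Cacna1h, Cacna1a, Cacna1c and Cacnb2, from 0.786 down to 0.255 RPKM, each overlapped its neighbours within counting error. In shDis3l2 Cacna1h (7.52 RPKM), Cacna1g (5.27 RPKM) and Cacna2d1 (3.43 RPKM) came next, ahead of Cacna1d (2.71 RPKM) and Cacnb1 (1.63 RPKM). Cacna1c (0.831 RPKM), Cacna1a (0.574 RPKM), Cacna2d2 (0.448 RPKM) and Cacnb2 (0.354 RPKM) stood last.

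As a description over the 14 libraries, which share lines and days, the pairs of subunits with the highest Pearson r of log2(CPM + 1) were Cacnb3 with Cacna2d1 (0.92), Cacna1g with Cacna2d1 and Cacnb2 with Cacna2d1 (both 0.91) and Cacna1g with Cacna1h (0.9). The lowest was Cacna1a with Cacna1c (-0.84). Among 13548 protein-coding genes, the profile nearest to Cacna1h was Mapkbp1 (0.976), followed by Syne2 (0.974), which encodes a nuclear envelope protein, and Fkbp10 (0.973), a collagen chaperone. Nearest to Cacna1g were Grik5 (0.975), a kainate receptor subunit, Prdm11 (0.957) and Pkd2 (0.956), the calcium-permeable channel polycystin-2. Nearest to Cacna2d1 were Lacc1 (0.994), Gm3095 (0.99) and the lipoprotein receptor Lrp1 (0.989), and nearest to Cacna1c were Pofut1 (0.979), Brf1 and Abat (both 0.975). Cacna1d went with Dock8 (0.988), Tcf7l2 (0.98), a transcription factor of Wnt signalling, and Cish (0.979). Cacna2d2 went with T (0.907), which is Brachyury, and Mixl1 (0.904), both transcription factors of the primitive streak, and with Syt7 (0.896). Cacna1a went with Slc4a5 (0.961), Gm8994 (0.953) and Gatsl3 (0.952), and Cacnb1 with 1700013H16Rik (0.944), Slc18b1 (0.943) and Stk11 (0.937). Cacnb2 went with Efr3b (0.964), Cxcl12 (0.96) and Arl10 (0.955), and Cacnb3 with Pdia4 (0.976), an endoplasmic reticulum chaperone, Sesn1 (0.97) and Taz (0.958).

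The other 16 genes of the channel family were mostly scarce, and 9 of them reached 1 CPM in a library. Of 7 that could be tested over d6 to d12, Cacna1e and Cacng7 rose in shDis3l2 and none fell (median log2 0.57). Of all genes tested over these days, 19.6% were called higher and 18.7% lower. Cacna1e, the R-type pore, stood at 0.376 to 0.992 CPM in shLacZ against 1.23 to 2.34 CPM with the hairpin (log2 1.63, SE 0.33, adjusted p = 0.00894), a call lost without d8 (0.0568). Cacng7, a gamma subunit that also serves AMPA receptors, peaked on d2, at 37.7 and 39.1 CPM, and on d12 was at 10.4 CPM in shLacZ against 30.0 CPM in the other line (log2 1.13, SE 0.18, adjusted p = 0.00341). Cacna1b, the N-type pore, likewise peaked early, at 31.8 CPM in shLacZ on d2 and 27.7 CPM in shDis3l2 on d4, and its late difference was 0.36 (SE 0.28, adjusted p = 0.36). The late log2 difference of Cacng4 was 0.98 (adjusted p = 0.0707), and those of Cacnb4 (0.57), Cacna1s (0.22) and Cacng8 (0.19) were smaller. Cacng5 and Cacng6 reached 1.02 and 4.28 CPM on early days and were too scarce to test later.

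Of 14 genes whose products bind or regulate these channels, 13 were tested, 5 rose and none fell (median log2 0.52). The shares of all genes tested were 19.6% called higher and 18.7% called lower. Stac, an adaptor that holds L-type channels at the membrane, had no read in shDis3l2 up to d6 and then measured 6.26, 2.79 and 1.97 CPM on d8, d10 and d12, against 0.414, 0.121 and 0.0 CPM in shLacZ (log2 4.23, adjusted p = 0.00209). Its relative Stac3 rose by 1.34 (adjusted p = 0.0171, at most 0.0719 over the alternatives, lost without d10 or d12). Gem and Rrad, small GTPases that restrain high-voltage channels through the beta subunit, rose by 1.09 (adjusted p = 0.00433) and 0.88 (adjusted p = 0.038), Gem being at 5.45 CPM (shLacZ) and 13.1 CPM (shDis3l2) on d12. Ahnak, a scaffold that binds the beta subunit, rose by 0.68 (adjusted p = 0.0427), although on d12 it was lower, at 294 CPM against 342 CPM in shLacZ. The Ahnak call was lost without d6, d8 or d10 (adjusted p up to 0.168) and the Rrad call without d8, d10 or d12 (up to 0.162). Calm2 and Calm3, which encode calmodulin, a calcium sensor of the pore, had late log2 differences of 0.22 and 0.02 and were not called. The differences of Rimbp2 (0.88), Cabp1 (0.52), Stac2 (0.11), Nedd4l (-0.28) and Rem2 (-0.29) were not called either.

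Voltage-gated sodium channels were set beside them as another family of excitable cells. Scn2a, a pore of neurons, rose over d6 to d12 by 1.61 on the log2 scale (SE 0.34, adjusted p = 0.0111), a call that was lost without d8 (0.06). The values of Scn2b (0.94), Scn8a (0.45), Scn3b (0.37), Scn3a (0.17) and Scn4b (-0.27) were not called, and Scn1a, Scn4a and Scn9a, which reached 4.63, 2.25 and 2.46 CPM at most, were too scarce over the late days.

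Markers of the cell types that EBs hold moved with the lines as well. In such bulk RNA fewer cells of a type and less RNA per cell cannot be told apart. The counts of markers called below stand beside 19.6% of all genes tested called higher and 18.7% called lower. All 5 smooth muscle-like markers rose over d6 to d12 (median log2 2.77), their sum being 70.5 to 161 CPM in shLacZ and 471 to 2130 CPM in shDis3l2, and Acta2, smooth muscle actin, rose by 3.49 (adjusted p = 0.000189). Of 6 mesenchyme-like markers 5 rose (median 1.88), with sums of 369 to 1510 CPM and 916 to 12300 CPM. Of 7 cardiomyocyte-like markers tested 4 rose (median 0.68), with sums of 25.0 to 75.3 CPM and 31.0 to 167 CPM. Of 7 neural-like markers tested 4 fell and none rose (median -1.25), with sums of 23.2 to 82.4 CPM and 22.2 to 107 CPM. All 5 visceral endoderm-like markers fell (median -1.92), from 1900 to 3510 CPM in shLacZ to 384 to 988 CPM in shDis3l2, as did 5 of 6 pluripotency markers (median -1.52). Of 4 endothelial-like markers 1 rose (median 0.14), with sums of 79.9 to 188 CPM and 181 to 352 CPM. The skeletal muscle markers Myod1, Myog and Ckm were at 3 reads or fewer in every late library. Among these markers the calls of Myh6, Myh7, Myl7, Des, Zfp42, Esrrb and Pax6 were lost without d8 or without d10, those of Sox1 and Sox2 without d10 and that of Kdr without d8. The Myh7 and Pax6 calls were also lost without d12, and the Pax6 call with the DESeq2 test. The part of these cell types in the channel differences was not tested.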

How the data were processed

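PolyA+ RNA of 14 mouse libraries was sequenced by the authors, who aligned reads with Subread to GRCm38 and counted them per gene with featureCounts. The strand setting was not given in the sources used here. The deposited raw counts (50686 genes) were used for every value. The deposited CPM table (16181 genes) holds (count + 0.25) over its own column sum, times 1000000, with a largest relative difference of 5e-15, and served for gene names and as a check. Its genes are fewer, so that its CPM differ from those given here, which divide by all counted reads. RPKM divides these by the exon length in the count table. Count columns headed shm5 were taken as shDis3l2, since a table of the study gives the same values under that line's name.

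Differences were tested with edgeR 4.0.16 (R 4.3.3): TMM scaling, filterByExpr on the design, glmQLFit and glmQLFTest, day as a factor, and Benjamini-Hochberg adjustment over all genes tested, at 0.05. The code was tested on simulated data. Single-day log2 values and 3-fold calls add a prior count of 0.25, and ratios of CPM carry exact Clopper-Pearson intervals (95%) of the split of reads. DESeq2 1.42.0, other scalings and filters, other thresholds and each day left out were alternatives. Text names all 10 genes, genes of the fixed lists that reached 1 CPM in a library (some are not reported here), and the 3 protein-coding genes nearest in profile to each. The members and lists were chosen with earlier results of these data known. Exons of Cacna1a, Cacna1d, Cacna1h, Cacnb1, Cacnb2 and Cacna2d2 overlap other genes, which had few reads.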

Additional observations from a re-analysis of the deposited data

Results flagged for a closer look

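The difference between the lines was not the same on early and late days for 3 of the 10 subunits, by edgeR's test of the interaction of line with period. The log2 change from d0 to d4 to d6 to d12 was 3.22 for Cacna1h, 1.74 for Cacna2d1 and 1.84 for Cacna1g. For Cacna1h and Cacna2d1 the call held under every scaling, filter, test and day left out that was run. For Cacna1g the adjusted p of 0.0495 lay at the threshold and the call was lost when any day other than d6 was left out, and on library totals. Each line and day is 1 library, so the test rests on the days of a single series.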

How the results depend on the processing

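Of the alternative values for the main counts, 142 stayed within 1.5 times, 9 single-day counts moved, 7 counts lost calls and 4 gained them. Over all 7 days the number called higher was 1, and was 4 without a filter on low counts, 4 with the DESeq2 test, and 0 to 2 when each day was left out in turn. Over d6 to d12 the 1 lower call became 0 without d6 or without d10, with a range of 0 to 1, and the 5 higher calls stood under every alternative run. The number called for change over days was 9. It was 10 on library totals, and 5 to 9 when a day was left out, the 5 being without d0. Cacna1a turned direction over d6 to d12, from -0.25 to 0.01 without d8 and to 0.0 without d10 (range -0.55 to 0.01), and was called in none of these. For the single-day counts, a fold of 2 in place of 3 gave 1 lower on d0, 4 higher and 1 lower on d6, 4 higher on d8, 2 lower on d10 and 5 higher on d12. With no minimum CPM 1 was lower on d0, with a minimum of 5 CPM 1 was higher on d6, and with TMM 1 was lower on d10. On d12 the 3 higher became 2 with TMM and with DESeq2 size factors, Cacna1c being lost. A filter by line, chosen after seeing the data, changed no count past 1.5 times. The causes of these changes were not tested. The tests of the line difference pair the lines by day, and each line and day is 1 library. Values at or under 3 reads limit any statement on Cacna1d, Cacna1g and Cacnb2 on d0 and on Cacna1c on d2.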
